A study of Mus musculus with 24 samples.

Results

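ACF1 and WSTF are the products of Baz1a and Baz1b, the 2 members of the BAZ1 family in mouse, and the comparison described here asked which genes responded differently, and which alike, to the loss of one or the other. The members are the libraries of mouse embryonic stem cells (mESCs) lacking Acf1 or Wstf with the wild-type (WT) libraries of their batches, 8 of the 24 RNA-seq libraries of the series. Of these, 2 libraries each came from Acf1Δ and from WT cells of batch E, and 2 each from WstfΔ and from WT cells of batch A. The letter is the one in the sample titles, taken here as the batch. The study's model has a batch term, but its methods do not tie that term to these letters. All 4 groups are untreated cells of the line 129S6/SvEvTac, grown with serum and leukaemia inhibitory factor (LIF). Each deletion line is 1 clone made with CRISPR–Cas9, Acf1 having been targeted in 2 rounds to remove a further isoform, so a deletion cannot be told apart from what is particular to its clone. No library is shared between the 2 sides, and batch and deletion can be told apart only through the WT libraries. The study's methods call its replicates independent, while the labels do not say which culture each library came from. The p-values measure the spread between libraries within groups, estimated over all 24 libraries of the series.

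ACF1 and WSTF are non-catalytic subunits of ISWI complexes, which use the ATPase SNF2H to slide and space nucleosomes. ACF1 joins SNF2H in the ACF complex and, with a pair of small histone-fold proteins, in CHRAC. WSTF joins it in WICH, which is known from replication foci, has a kinase activity toward the histone variant H2A.X, and as B-WICH is linked to transcription of ribosomal RNA genes by RNA polymerase I. Human WSTF takes its name from the Williams syndrome region, in which its gene lies. Mouse ES cells in serum are a mixture of states, with naive pluripotency factors, factors of the later formative state, and a small share of cells that express genes of the primitive endoderm.

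The value analysed for each gene is the difference of 2 changes, the log2 fold change in Acf1Δ against batch E WT minus the log2 fold change in WstfΔ against batch A WT. A positive value means that a gene stood higher after loss of Acf1 than after loss of Wstf, each relative to its own WT. A gene was called where the absolute log2 value exceeded 1 and the Benjamini-Hochberg adjusted p of edgeR's quasi-likelihood test was under 0.01, and adjusted p-values below come from that test. Levels are counts scaled to library size with TMM factors (CPM), given for library 1 and library 2 of each group. The 8 libraries held between 13.4 and 28.3 M counts, the 2 WstfΔ libraries being the shallowest. A group whose libraries both hold at most 3 counts of a gene gives only a bound on a fold change, written as "at least". Pluripotency markers that define ES cells were present in all 8 libraries, Pou5f1 between 990 and 1726 CPM and Nanog between 373 and 612 CPM.

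The targeted genes followed the labels. Baz1a (gene 217578, mm10 chr12:54892989-55014371) was at 19 and 18.9 CPM in Acf1Δ against 61.8 and 62.9 CPM in WT, and Baz1b (gene 22385, mm10 chr5:135187323-135246131) at 46.1 and 50.8 CPM in WstfΔ against 243 and 269 CPM in WT. Each deletion left a measurable level of its own mRNA. The changes were -1.72 (SE 0.068) for Baz1a in Acf1Δ and -2.40 (SE 0.087) for Baz1b in WstfΔ on the log2 scale. Neither paralogue was called in the line lacking the other. Baz1a was lower in WstfΔ, at 41.7 and 41.3 CPM against 70.5 and 76.9 CPM in WT, a log2 change of -0.83 (SE 0.067, edgeR adjusted p = 1.04e-10) that stays under the 2-fold minimum. Baz1b in Acf1Δ was at 213 and 175 CPM against 212 and 228 CPM, a log2 change of -0.18 (SE 0.077, edgeR adjusted p = 0.0597). Per kilobase of the deposited gene width, Baz1b mRNA was the more abundant of the 2 in WT cells, at 20.4 ± 1.02 against 8.71 ± 0.111 CPM per kilobase in batch E and 23.7 ± 1.64 against 10.3 ± 0.631 in batch A (SD, n = 2 each). Smarca5, which encodes SNF2H, differed between the 2 changes by -0.26 (95% interval -0.47 to -0.04) and was not called.

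Of 15682 genes tested, 1928 (12.3%) were called for the difference, 922 (5.88%) higher and 1006 (6.41%) lower in Acf1Δ relative to WstfΔ. Of the 1928 genes, 936 (48.5%) were called against WT in WstfΔ only, 528 of them lower and 408 higher there, and 208 (10.8%) in Acf1Δ only. A further 53 were called in both lines with opposite signs and 32 in both with the same sign but a different size. The remaining 699 (36.3%) passed for the difference although neither line passed against its own WT. Against its own WT, Acf1Δ had 698 genes called (4.45%), of which 178 were higher (1.14%) and 520 lower (3.32%), and WstfΔ had 1638 (10.4%), of which 607 were higher (3.87%) and 1031 lower (6.57%). Across all genes tested the 2 changes had a Pearson correlation of 0.172, and of 0.236 over the 2093 genes called in either line, both across genes, which are not independent replicates.

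The WT libraries differed too. Between batch E WT and batch A WT 705 genes (4.5%) were called, 375 higher (2.39%) and 330 lower (2.1%) in batch E, and 400 of the 1928 genes (20.7%) were called between the WT groups against the direction of the difference. The levels of the 2 lines, compared directly without taking off WT, were called for 980 genes (6.25%), 478 higher (3.05%) and 502 lower (3.2%) in Acf1Δ, and in the direction of the difference for 715 of the 1928 (37.1%), and 615 (31.9%) were so called with no call between the WT groups. A model without a batch term sets both lines against the same WT libraries, so that its difference is the difference between the levels of the lines, and it called 290 genes. That model pools the WT libraries of all batches, so differences between batches count as spread. Its counts are therefore not on the same footing as the 980 above, which come from the model with batch. Genes named below for which the WT groups were also called include, lower in batch E, Ankrd1, Acta1, Lef1, Pim2, Pou3f1, Id3, Cdx1, Dkk1, Igf2, Mt2, Vnn1, Krt7, Gbp2, Stmn4, Spink1, Mfsd2a and Lrp2, and, higher in batch E, H2ax, Vps37d, Tcl1, Sox1, Neurod1, Pax2, Dpys, Zscan4a, Dglucy, Klhdc7a and Myl4.

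**Figure D1:**
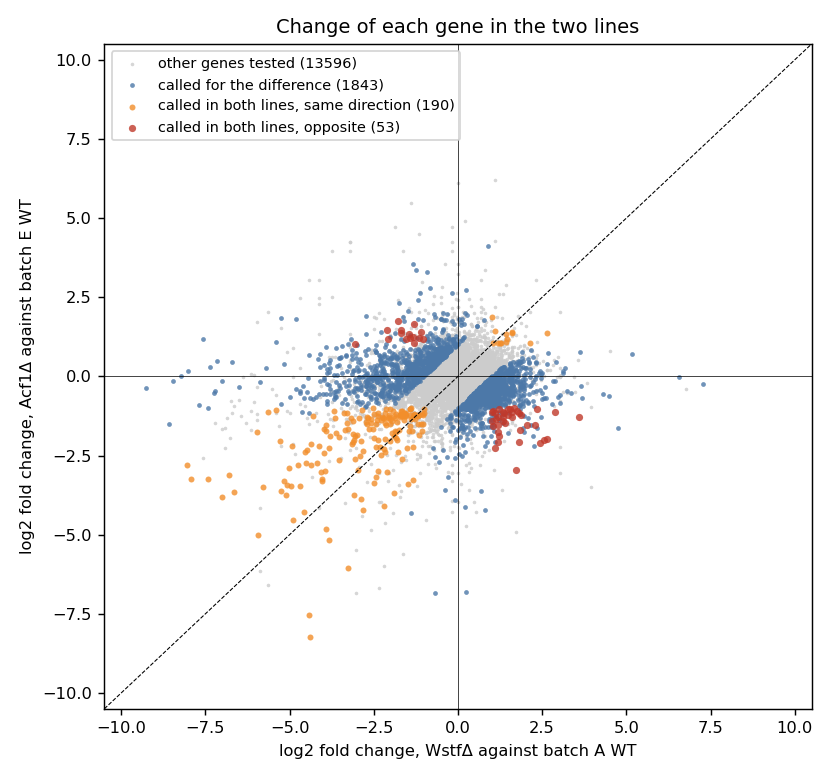
Log2 fold change of each of the 15682 genes tested in WstfΔ (x axis) and Acf1Δ (y axis), each against the WT of its batch, with the dashed line marking equal change. The blue points, called for the difference and in neither of the other classes, spread further along the WstfΔ axis than along the Acf1Δ axis, the 190 orange points were called in both lines in the same direction, mostly lower, and the 53 red points in opposite directions.

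Gene lists for the biology tied to the BAZ1 proteins held shares of called genes near the 12.3% of all genes tested. Of the 29 genes for RNA polymerase I and B-WICH, 3 were called for the difference, all higher (10.3%), none in either line alone, and the median difference was 0.36 against 0.02 over all genes tested. They were Polr1d, a subunit shared by RNA polymerases I and III, Taf1c, a part of the promoter selectivity factor of RNA polymerase I, and Bop1, a ribosome biogenesis factor. Polr1d was at 70.9 and 88.1 CPM in Acf1Δ against 46.1 and 46.5 CPM in WT, and at 45.2 and 49.2 CPM in WstfΔ against 62.5 and 63.7 CPM. It therefore stood above WT in both Acf1Δ libraries and below WT in both WstfΔ libraries, with a difference of 1.20 (SE 0.12, edgeR adjusted p = 4.16e-09). Polr1a, the largest subunit, had a difference of 0.74 (95% interval 0.51 to 0.98), and 24 of the 29 genes had an interval that lay within 2-fold.

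Among 29 genes of the replication fork and the H2A.X damage response, 3 were called (10.3%), all lower in Acf1Δ relative to WstfΔ, a share near that of all genes. H2ax, the histone variant that WSTF phosphorylates, was at 308 and 344 CPM in WstfΔ against 161 and 146 CPM in WT, and at 370 and 399 CPM in Acf1Δ against 403 and 432 CPM. The rise in WstfΔ was 1.08 (SE 0.10, edgeR adjusted p = 2.57e-09), but batch E WT stood above batch A WT by 1.44 on the log2 scale, and without a batch term the difference turned from -1.20 to 0.24. Eya1, one of the phosphatases that reverse this phosphorylation, had a difference of -1.88 (SE 0.18, edgeR adjusted p = 3.79e-09), with 6.01 and 4.34 CPM in Acf1Δ and 12.1 and 11.1 CPM in WstfΔ. The genes of the replicative helicase and of the sliding clamp were not called. Mcm3, of the helicase, had a difference of -0.00 (95% interval -0.14 to 0.14) and Pcna, the clamp, of 0.14 (95% interval -0.05 to 0.32).

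Lists for chromatin partners were near or under the background. None of 14 CTCF and cohesin genes and none of 22 genes for H3K9 methylation and HP1 was called for the difference or in either line, and all 14 and all 22 had an interval of the difference within 2-fold. Ctcf was at 249 and 221 CPM in Acf1Δ against 235 and 236 CPM, and at 249 and 256 CPM in WstfΔ against 265 and 262 CPM, a difference of 0.06 (95% interval -0.10 to 0.22). Rad21, a cohesin subunit, had -0.64 (95% interval -0.82 to -0.45), the lowest of the CTCF and cohesin list. Polycomb genes gave 1 higher and 1 lower of 31, histone genes 0 higher and 2 lower of 64, of which 48 held at most 3 counts in both libraries of some group, clustered protocadherins 1 of 41, and Hox genes 0 of 14. Of 24 genes of the Williams syndrome region, 2 were higher, Baz1b itself and the syntaxin gene Stx1a, and 1 lower, Vps37d. Among the 14 BAZ1 paralogues and partners, Baz2b, which encodes another bromodomain protein, was the other gene called beside Baz1b, at 35.8 and 30.2 CPM in Acf1Δ against 53 and 53.7 CPM, and at 54.8 and 51.5 CPM in WstfΔ against 29.6 and 32.9 CPM, a difference of -1.46 (SE 0.11, edgeR adjusted p = 6.84e-11). Neither line was called for Baz2b against its own WT, with changes of -0.70 and 0.77. Batch E WT stood above batch A WT by 0.77, not called, so that each line was near the WT of the other batch.

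Lists for cell states held larger shares of called genes. Of 24 primitive and visceral endoderm genes tested, 15 (62.5%) were called higher in Acf1Δ relative to WstfΔ and none lower, with a median difference of 1.49. The list had 13 genes called lower in WstfΔ and 0 called in Acf1Δ. Sox17, a transcription factor of this lineage, was at 3.97 and 4.39 CPM in WstfΔ against 19.9 and 18.4 CPM in WT, and at 26.5 and 25.4 CPM in Acf1Δ against 16.2 and 15.4 CPM. WstfΔ thus stood below and Acf1Δ above all libraries of its WT, and the 2 changes were -2.19 (SE 0.17) and 0.72 (SE 0.12), which differ by 2.91 (SE 0.21, edgeR adjusted p = 1.14e-11). Pdgfra, the receptor that marks the same lineage, was at 11.6 and 10.1 CPM in WstfΔ against 43.8 and 49.4 CPM, and at 45.1 and 36.6 CPM in Acf1Δ against 28.1 and 29.0 CPM. Its difference of 2.61 (SE 0.16, edgeR adjusted p = 6.87e-13) combines a fall of -2.10 in WstfΔ with a value of 0.51 in Acf1Δ. Gata4, another lineage factor, picked with its values known, stood at 30.1 and 35.1 CPM in WstfΔ against 97.1 and 100.0 CPM, with a difference of 2.12 (SE 0.16).

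Col4a1, a type IV collagen chain of the basement membrane, picked in the same way, stood at 329 and 323 CPM in WstfΔ against 1745 and 1886 CPM in WT, while Acf1Δ held 1244 and 920 CPM against 971 and 1196 CPM. The fall in WstfΔ was -2.48 (SE 0.10), and the Acf1Δ libraries overlapped their WT. Plat and Thbd, encoding a plasminogen activator and thrombomodulin, had the largest differences of the genes called in this list, 3.01 (SE 0.26) and 3.96 (SE 0.39), and Thbd fell to 0.867 and 0.146 CPM in WstfΔ. Lrp2, an endocytic receptor gene of visceral endoderm, was also called higher, with 1.48 (SE 0.25), with no call in either line and the WT groups called, batch E lower by -1.26. Hnf4a, a factor of visceral endoderm, was at 6.57 and 5.49 CPM in WstfΔ against 4.31 and 2.50 CPM, a difference of -0.81 (95% interval -1.53 to -0.09), and Afp, Ttr and Apoa1 were too low to be tested. Summed over the list, WstfΔ held 4113 and 4149 CPM against 9821 and 11039 CPM in its WT, and Acf1Δ 8386 and 6618 CPM against 7068 and 7966 CPM. In bulk RNA, fewer cells of a type and less RNA of these genes per cell cannot be told apart. The levels of the 2 lines were themselves called for 11 of the 24 genes, all higher in Acf1Δ, and the WT groups for 3. Without a batch term 1 of the 24 genes was called for the difference and 2 in WstfΔ.

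Naive and formative pluripotency factors were called in opposite directions. Of 21 naive factors 6 (28.6%, against 12.3% of all genes tested) were called lower in Acf1Δ relative to WstfΔ and none higher, with a median difference of -0.58. Tbx3 was at 220 and 213 CPM in WstfΔ against 76.8 and 77.6 CPM in WT, a rise of 1.49 (SE 0.074), and at 138 and 127 CPM in Acf1Δ against 132 and 136 CPM, which overlap. Klf4 was at 316 and 312 CPM in WstfΔ against 133 and 121 CPM and differed between the changes by -1.22 (SE 0.12, edgeR adjusted p = 8.09e-09). Tcl1 and Klf5 lay below WT in Acf1Δ and above it in WstfΔ, with differences of -1.76 (SE 0.11) and -1.54 (SE 0.089). No naive gene had levels that were called between the 2 lines, and batch E WT stood higher than batch A WT, by 0.97 for Klf4 and 0.80 for Tbx3. Gbx2 rose in Acf1Δ, by 1.07 (SE 0.076), and had a value of 0.85 (SE 0.080) in WstfΔ, under the 2-fold minimum. Without a batch term none of the 21 was called for the difference.

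Of 17 formative and primed factors 7 (41.2%) were called higher and none lower, with a median difference of 0.70. Lef1, the Wnt-responsive transcription factor, was at 0.289 and 0.659 CPM in WstfΔ against 6.70 and 6.59 CPM, and at 2.58 and 2.08 CPM in Acf1Δ against 2.14 and 1.74 CPM. The difference was 4.06 (SE 0.42, edgeR adjusted p = 1.11e-08), the Acf1Δ libraries overlapped their WT, and batch E WT was itself lower than batch A WT by -1.77. Pim2, a kinase gene, and Pou3f1, a transcription factor, fell in WstfΔ by -2.57 (SE 0.10) and -1.79 (SE 0.13), with values of -0.15 and -0.02 in Acf1Δ. Other formative factors fell in both lines. Zic2 was at 2.31 and 1.80 CPM in Acf1Δ against 7.11 and 7.07 CPM, and at 1.88 and 2.41 CPM in WstfΔ against 8.18 and 8.53 CPM, and its changes of -1.79 and -1.96 differed by 0.17 (95% interval -0.51 to 0.85). Zic5 fell likewise, by -1.50 and -1.18. The WT groups were called for 5 of the 17 genes, all lower in batch E, and without a batch term no gene of the list was called for the difference.

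The de novo DNA methyltransferases separated the lines among 20 genes of DNA methylation and imprint maintenance, of which 3 were higher and 1 lower (20%, against 12.3% of all genes). Dnmt3l, the cofactor of the de novo enzymes, was at 336 and 358 CPM in Acf1Δ against 194 and 201 CPM in WT, and at 48.6 and 51.8 CPM in WstfΔ against 342 and 338 CPM. Acf1Δ stood above and WstfΔ far below its WT, with a difference of 3.58 (SE 0.084, edgeR adjusted p = 2.95e-21). Dnmt3a rose in Acf1Δ by 1.15 (SE 0.059), to 313 and 284 CPM against 130 and 138 CPM, with a value of -0.15 in WstfΔ. Dnmt3b separated through WstfΔ, falling there by -1.34 (SE 0.061) with a value of -0.04 in Acf1Δ. Tet2, a methylcytosine dioxygenase gene, was the member called lower, at -0.41 in Acf1Δ and 0.96 in WstfΔ. The levels of the 2 lines were called for 1 of the 20 genes, Dnmt3l. Batch E WT was below batch A WT by -0.57 for Dnmt3a and by -0.79 for Dnmt3b and for Dnmt3l, none called. For Dnmt3l the Acf1Δ libraries were near those of batch A WT. The maintenance enzyme gene Dnmt1 had a difference of -0.34 (95% interval -0.51 to -0.17).

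**Figure D2:**
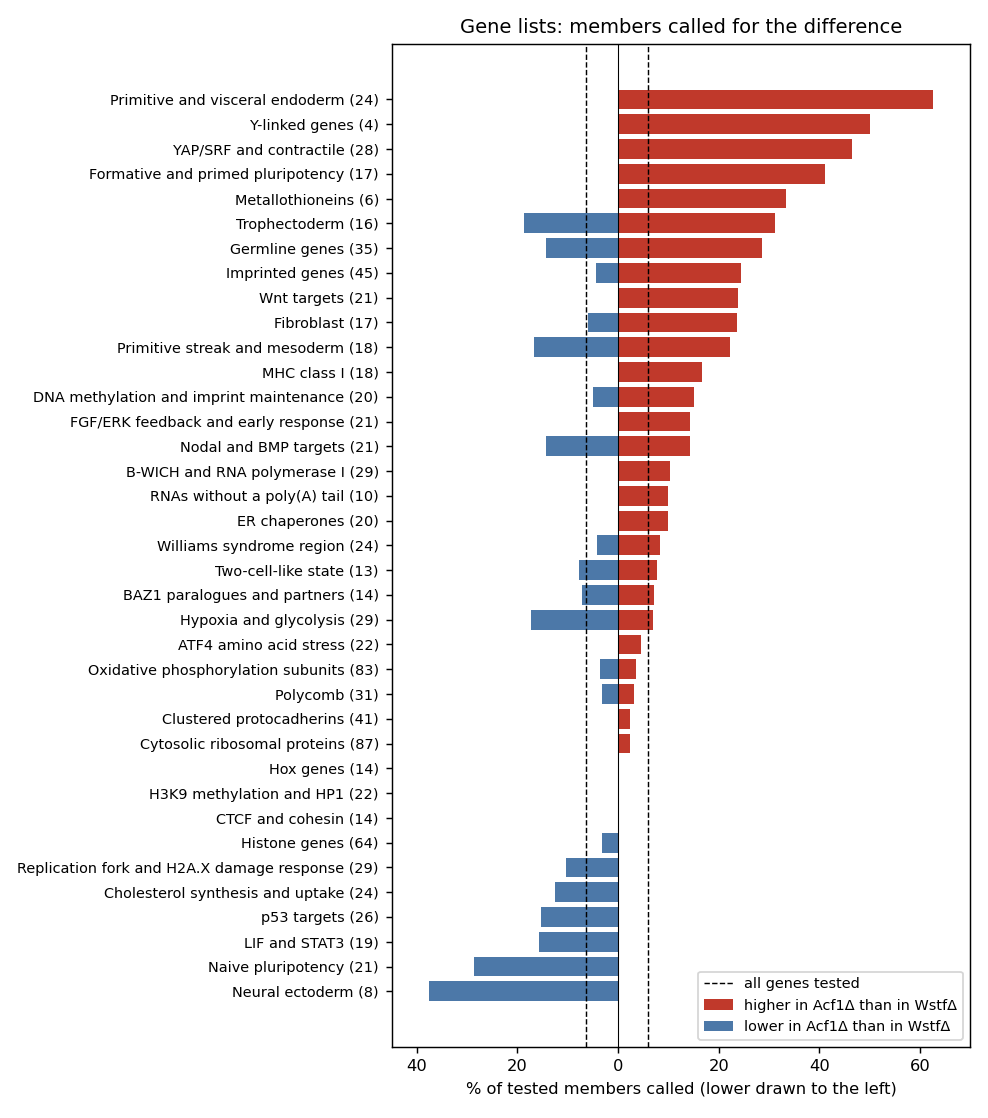
Share of the tested members of each of 37 gene lists called for the difference, higher in Acf1Δ relative to WstfΔ to the right and lower to the left, in percent, with the number tested in brackets and dashed lines at the shares over all genes tested (5.88% and 6.41%). Endoderm, YAP/SRF and formative genes lie only on the right and naive and neural genes only on the left, while the CTCF, H3K9 and Hox lists have no bar.

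Genes known as targets of YAP and of SRF, the transcription factors that respond to cell spreading and actin, were often lower in both lines, and more of them in WstfΔ. YAP acts on DNA through TEAD factors, and SRF binds the CArG box. Of the 28 genes of this list 16 were called lower in WstfΔ and 8 in Acf1Δ, all 8 of which were called in both lines, and 13 (46.4%) were called higher for the difference, with a median of 1.07, or 1.05 with the genes at the count floor set to their bound. The promoters of 4 members are shown as examples of where the motifs lie. These 4 were chosen after their values were seen, so nothing can be read from which of them holds which motif. Each window is the 250 bases before the start of transcription, 5′ to 3′ on the strand of the gene, from RefSeq on GRCm38 (mm10). Capitals mark the TEAD motif GGAATG on either strand in Ankrd1 and Ccn1, this motif and the CArG box in Acta1, and the CArG box in Myl9. Ankrd1 (chr19:36119845-36120094, minus strand) and Ccn1 (chr3:145649986-145650235, minus strand) fell in WstfΔ and not in Acf1Δ, and Acta1 (chr8:123894776-123895025, minus strand) and Myl9 (chr2:156775214-156775463, plus strand) fell in both.
Ankrd1: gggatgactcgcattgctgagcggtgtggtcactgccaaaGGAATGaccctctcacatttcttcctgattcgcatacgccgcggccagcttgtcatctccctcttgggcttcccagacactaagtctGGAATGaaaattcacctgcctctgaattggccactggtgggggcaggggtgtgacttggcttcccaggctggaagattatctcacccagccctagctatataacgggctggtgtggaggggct
Ccn1: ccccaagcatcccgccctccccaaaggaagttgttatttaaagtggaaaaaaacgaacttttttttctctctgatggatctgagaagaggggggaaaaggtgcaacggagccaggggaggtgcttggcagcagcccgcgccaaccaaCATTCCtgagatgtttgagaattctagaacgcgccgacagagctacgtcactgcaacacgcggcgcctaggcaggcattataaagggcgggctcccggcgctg
Acta1: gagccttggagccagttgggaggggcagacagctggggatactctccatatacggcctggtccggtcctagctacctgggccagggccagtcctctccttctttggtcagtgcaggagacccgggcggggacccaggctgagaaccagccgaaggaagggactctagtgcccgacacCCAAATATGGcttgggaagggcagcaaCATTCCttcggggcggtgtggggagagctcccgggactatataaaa
Myl9: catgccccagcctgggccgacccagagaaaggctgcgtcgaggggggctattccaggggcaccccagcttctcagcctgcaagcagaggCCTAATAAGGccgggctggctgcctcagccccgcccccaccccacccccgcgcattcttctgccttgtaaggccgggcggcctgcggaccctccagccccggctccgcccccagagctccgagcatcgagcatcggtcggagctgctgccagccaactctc

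A promoter window was found for 22 of the 28 members, of which 12 hold the TEAD motif and 7 the CArG box, against 13.1% and 1.4% of the 12223 genes tested that have a window. These are letters in a window and not sites shown to be bound. Among the 9 members with a window that were called for the difference, 6 hold the TEAD motif and 2 the CArG box, among the 7 called lower in both lines, 4 and 3 do, and among the 5 called lower in WstfΔ only, 3 and 1 do. Ankrd1, which encodes a muscle ankyrin repeat protein, was at 0.722 and 0.659 CPM in WstfΔ against 38.2 and 43.7 CPM in WT, and at 15.6 and 13.3 CPM in Acf1Δ against 17.5 and 15.3 CPM. The fall of -5.88 (SE 0.20) in WstfΔ stands beside -0.19 (SE 0.11) in Acf1Δ, where the groups overlap, a difference of 5.69 (SE 0.25, edgeR adjusted p = 3.18e-15), and batch E WT was lower than batch A WT by -1.32. Ccn1, a secreted matricellular protein gene, was at 22.5 and 22.7 CPM in WstfΔ against 214 and 212 CPM, and at 121 and 120 CPM in Acf1Δ against 133 and 130 CPM. Its difference was 3.11 (SE 0.10, edgeR adjusted p = 2.49e-18). Thbs1 and Ccn2 gave differences of 4.33 (SE 0.20) and 2.66 (SE 0.096), with smaller falls in Acf1Δ of -0.66 and -0.70 that were under the 2-fold minimum.

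The smooth and skeletal muscle actins and their partners fell in both lines. Acta2, smooth muscle actin, was at 2.39 and 1.94 CPM in Acf1Δ against 27.6 and 25.7 CPM in WT, and at 0.867 and 0.951 CPM in WstfΔ against 33.7 and 35.5 CPM. Both lines lay far below WT, by -3.62 (SE 0.16) and -5.24 (SE 0.21), and the 2 falls differed by 1.62 (SE 0.34, edgeR adjusted p = 0.000311). Acta1 was at 0.634 and 0.494 CPM in Acf1Δ against 4.27 and 4.96 CPM, and at 0.867 and 0.512 CPM in WstfΔ against 11.9 and 11.4 CPM, so that the 2 lines ended at overlapping levels from different WT levels. Myl9, a myosin light chain gene, fell by -1.15 (SE 0.18) and -3.39 (SE 0.24). Not every member was called. Actb, cytoplasmic actin, had changes of 0.07 and -0.17, Srf of -0.15 and -0.30, and Vcl, which encodes vinculin, of -0.54 and -0.36. Without a batch term 1 of the 28 genes was called for the difference, 8 in WstfΔ and 0 in Acf1Δ.

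Fibroblast markers, the genes of a cell type that feeder layers would bring, included Acta2 and Tagln of the same list. The study's methods describe culture on gelatin-coated plates and do not mention feeder layers. Of 17 tested, 7 were lower in Acf1Δ and 10 in WstfΔ, and 1 was higher in WstfΔ. For the difference 4 were higher and 1 lower (29.4%, against 12.3% of all genes tested). The sum over the list lay between 799 and 1476 CPM in the 8 libraries, most of it Fn1. The defining collagen gene Col1a1 was at 0.970 and 1.06 CPM in Acf1Δ against 10.1 and 11.3 CPM, and at 3.40 and 2.27 CPM in WstfΔ against 7.78 and 8.23 CPM. It fell in both and further in Acf1Δ, a difference of -1.90 (SE 0.35, edgeR adjusted p = 7.81e-05). Postn, Dcn and Lum were too low to be tested. What part fibroblast RNA has in the contractile genes was not tested. Trophectoderm markers gave 5 higher and 3 lower of 16 for the difference (50%). Of these 16, 11 were called lower and 3 higher in WstfΔ, with a median change of -2.33, and 6 lower and 0 higher in Acf1Δ. The simple keratin Krt18 was at 14.4 and 16.5 CPM in WstfΔ against 196 and 190 CPM, and at 64.2 and 65.3 CPM in Acf1Δ against 100.0 and 94.6 CPM, a difference of 3.05 (SE 0.14). Tead4 and Gata2, transcription factors of this lineage, were among the 3 that rose in WstfΔ, by 1.17 (SE 0.11) and 1.55 (SE 0.13). In the model with no batch term, none of the 17 fibroblast genes and 2 of the 16 trophectoderm genes were called for the difference.

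**Figure D3:**
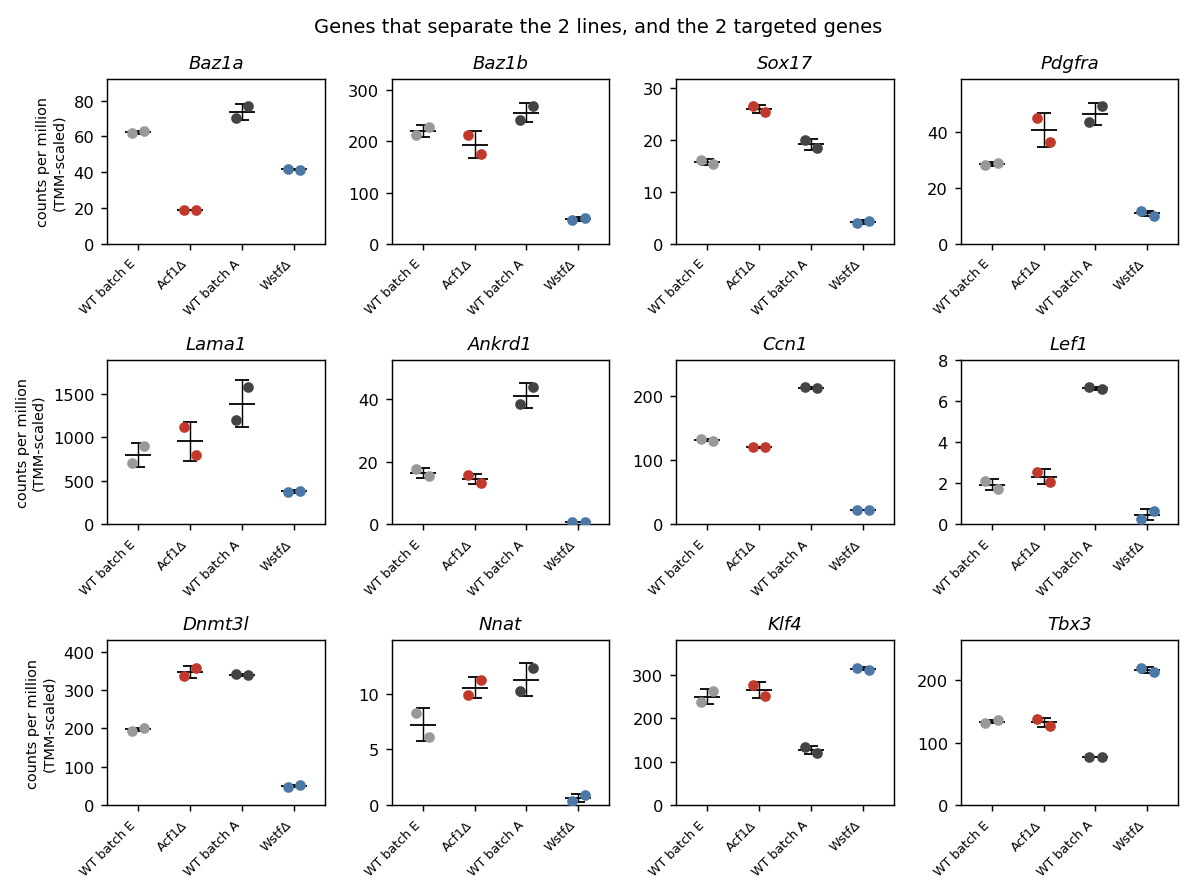
CPM (TMM-scaled, y axis from 0) of the 2 targeted genes and 10 genes that separate the lines, in the 2 libraries of each of 4 groups (points), with the mean and SD (bars, n = 2). Sox17, Ankrd1, Ccn1, Lef1, Dnmt3l and Nnat are lowest in WstfΔ, Klf4 and Tbx3 highest there, and the 2 WT groups differ for several of them.

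Signalling genes gave mixed lists with a few large members. Lefty1 and Lefty2, secreted inhibitors of Nodal, moved apart. Lefty2 was at 8.21 and 9.14 CPM in Acf1Δ against 21.3 and 21.0 CPM in WT, and at 67.1 and 65.0 CPM in WstfΔ against 22.1 and 21.4 CPM. The WT groups were level, Acf1Δ fell by -1.28 (SE 0.088), WstfΔ rose by 1.60 (SE 0.078), and the difference was -2.89 (SE 0.12, edgeR adjusted p = 2.72e-16). Lefty1 gave -2.35 (SE 0.13). The BMP-responsive gene Id3 went the other way, at 22.3 and 22.8 CPM in Acf1Δ against 15.1 and 18.2 CPM and 13 and 13.4 CPM in WstfΔ against 37 and 35.8 CPM, a difference of 1.90 (SE 0.14). Over the 21 Nodal and BMP targets 3 were higher and 3 lower (28.6%, against 12.3% of all genes tested). Foxa2, a streak and endoderm factor, was at 1.95 and 1.83 CPM in WstfΔ against 7.66 and 9.22 CPM, and the groups overlapped in Acf1Δ, at 8.14 and 7.55 CPM against 7.59 and 7.22 CPM.

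Of 21 Wnt targets 5 were higher and 0 lower (23.8%), namely Lef1, Cdx2, Cdx1, Dkk1 and Myc. Myc, Dusp4 and Egr1 were the 3 called among 21 genes of FGF/ERK feedback and early response, all higher. Myc was at 181 and 169 CPM in Acf1Δ against 85.3 and 90.9 CPM, and at 94.8 and 91.2 CPM in WstfΔ against 138 and 130 CPM, a difference of 1.52 (SE 0.096, edgeR adjusted p = 1.37e-12) with Acf1Δ above and WstfΔ below WT. Among 29 genes of hypoxia and glycolysis 2 were higher and 5 lower (24.1%). Egln3, an oxygen sensor, rose in WstfΔ to 55.6 and 50.1 CPM against 17.1 and 15.3 CPM, and the prolyl hydroxylases of collagen P4ha1 and P4ha2 fell there by -1.32 (SE 0.074) and -1.77 (SE 0.068). Of 26 p53 targets 4 were lower and none higher, led by Trp53inp1 with -1.36 (SE 0.090). Mt2, a metallothionein gene, rose in Acf1Δ to 121 and 138 CPM against 52.2 and 44.8 CPM and fell in WstfΔ to 93.8 and 99.4 CPM against 213 and 203 CPM, but batch E WT was lower than batch A WT by -2.10, so the lines lay closer to each other than their WT groups did. The FGF/ERK (14.3%) and p53 (15.4%) shares lie near the 12.3% of all genes called for the difference. Of the remaining lists, 3 of 8 neural ectoderm genes, 3 of 24 cholesterol genes and 3 of 19 LIF and STAT3 genes were called, all lower, and 3 of 18 MHC class I genes and 2 of 20 chaperones of the endoplasmic reticulum, all higher. The cholesterol (12.5%), LIF (15.8%), MHC (16.7%) and chaperone (10%) shares also lie near that of all genes.

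Of 45 imprinted genes tested, 11 were higher and 2 lower for the difference (28.9% in all), with 14 called lower in WstfΔ and 3 higher and 5 lower in Acf1Δ. The maternally expressed RNAs of the Dlk1-Dio3 cluster on chromosome 12 stood above WT in Acf1Δ and below it in WstfΔ, with Meg3 and Mirg called lower in WstfΔ and none of the 3 named here called in Acf1Δ. Rian, picked with Meg3 and Mirg once their values were known, stood at 338 and 328 CPM in Acf1Δ against 200 and 215 CPM in WT, and at 159 and 173 CPM in WstfΔ against 283 and 307 CPM, a difference of 1.51 (SE 0.088, edgeR adjusted p = 2.94e-13). Meg3 gave 1.75 (SE 0.22) and Mirg 1.59 (SE 0.19). Rtl1, a paternally expressed gene of the same cluster that a maternally expressed antisense RNA overlaps, gave 2.60 (SE 0.32) and passed in both lines, at 5.67 and 6.70 CPM in Acf1Δ against 2.21 and 3.0 CPM and at 1.59 and 1.68 CPM in WstfΔ against 3.47 and 4.91 CPM. Whether strand was used in counting is not stated, so reads of Rtl1 and of its antisense RNA cannot be told apart. Dlk1, also paternally expressed, had a difference of 0.97 (95% interval 0.53 to 1.41).

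H19 and Igf2, the reciprocally imprinted pair on chromosome 7, fell in both lines but not to the same extent. H19 RNA was at 0.187 and 0.494 CPM in Acf1Δ against 110 and 102 CPM in WT, and at 9.32 and 8.78 CPM in WstfΔ against 190 and 191 CPM. The falls of -8.24 (SE 0.14) and -4.39 (SE 0.096) differed by -3.85 (SE 0.24, edgeR adjusted p = 1.18e-12), so this gene, unlike most of those that fell in both lines, fell further in Acf1Δ. Igf2, named after its values were seen, fell by -1.45 (SE 0.11) and -2.74 (SE 0.12) and ended at 15.7 and 11.9 CPM and 13.7 and 14.1 CPM, which overlap. Nnat, a neuronatin gene expressed from the paternal allele, was lost in WstfΔ alone, at 0.361 and 0.878 CPM against 10.2 and 12.3 CPM, while Acf1Δ held 9.85 and 11.2 CPM against 8.29 and 6.15 CPM, a difference of 4.71 (SE 0.39, edgeR adjusted p = 2.09e-10). Grb10 was the other gene called lower, with -1.24 (SE 0.087). Usp29 and Smoc1 fell alike, with differences of 0.17 (95% interval -0.55 to 0.89) and 0.33 (95% interval -0.04 to 0.70).

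Germline genes, 35 tested, gave 10 higher and 5 lower (42.9% in all, against 12.3% of all genes tested). Tdrd1, a piRNA pathway gene, was at 10.1 and 9.35 CPM in Acf1Δ against 6.12 and 6.96 CPM, and at 3.18 and 3.22 CPM in WstfΔ against 11.8 and 10.4 CPM, a difference of 2.37 (SE 0.20). The synaptonemal complex genes Syce1 and Sycp2 fell in WstfΔ by -1.47 (SE 0.10) and -1.56 (SE 0.24), with values of 0.37 and 0.08 in Acf1Δ. Fmr1nb, a testis gene on chromosome X, fell in both and further in Acf1Δ, at 0.970 and 1.45 CPM against 21.8 and 20 CPM, with 5.42 and 5.34 CPM in WstfΔ against 24.9 and 24.1 CPM. With no batch term, 4 of the 45 imprinted genes and 6 of the 35 germline genes were called for the difference. The transcripts of the 2-cell-like state were called lower for 9 of 13 in Acf1Δ and 1 in WstfΔ, against 3.32% and 6.57% of all genes tested. Yet 2 were called for the difference (15.4%, near the 12.3% of all genes), Pramel6 higher and Usp17lb lower, both with at most 3 counts per library in one of the lines. Zscan4a was at 0.0373 and 0.176 CPM in Acf1Δ against 2.76 and 2.93 CPM, and at 0.217 and 0.293 CPM in WstfΔ against 1.48 and 0.818 CPM. Its difference of -2.49 (95% interval -4.82 to -0.15) did not pass. At 8 of the 13 genes some group held at most 3 counts in both libraries, members of this family share near-identical copies, and the depth did not allow the 2 falls to be ranked. The number called for the difference in this list was 0 or 1 when any 1 of the 8 libraries was left out, and 0 in a fit of the 8 libraries alone. The number called in Acf1Δ was 6 to 9 with 1 library left out and 2 without a batch term.

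Several genes called higher for the difference had few or no counts in WstfΔ. Krt23, a keratin gene, had 0 counts in both WstfΔ libraries against 2.99 and 3.23 CPM in WT, at least 14.2-fold lower, while Acf1Δ was at 1.87 and 1.38 CPM against 2.54 and 1.63 CPM. Uba1y, a Y-linked gene for the ubiquitin-activating enzyme, and Cdh10, a cadherin gene, likewise had no counts in WstfΔ, at least 8.08-fold and 6.81-fold lower. Uba1y was at 0.709 and 0.953 CPM in Acf1Δ against 1.07 and 0.778 CPM, and of the other Y-linked genes tested Uty was called for the difference, with 1.06 (SE 0.14), while Ddx3y gave 0.59 (SE 0.14). Vnn1, a pantetheinase gene, was at 0.289 and 0.220 CPM in WstfΔ against 8.62 and 9.86 CPM, with Acf1Δ at 5.67 and 5.05 CPM against 3.87 and 4.37 CPM, a difference of 5.53 (SE 0.37, edgeR adjusted p = 5.53e-12).

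Among the genes called lower in Acf1Δ relative to WstfΔ, some were gains in WstfΔ and others losses in Acf1Δ. Cadps, a gene for vesicle priming in neurons, was at 23.7 and 22.5 CPM in WstfΔ against 0.997 and 1.08 CPM, a rise of 4.47 (SE 0.22), and at 0.672 and 0.353 CPM in Acf1Δ against 0.884 and 0.666 CPM. Pax2, a transcription factor of kidney and neural development, was at 3.9 and 3.0 CPM in WstfΔ against 0.120 and 0.129 CPM, at least 27.7-fold higher. Ndufa4l2, a mitochondrial gene induced by hypoxia, rose there by 5.17 (SE 0.39), from 0.199 and 0.258 CPM to 9.75 and 6.95 CPM. Dpys, the dihydropyrimidinase gene, separated through Acf1Δ, at 0.746 and 0.635 CPM against 13.1 and 11.1 CPM, with 6.36 and 6.80 CPM in WstfΔ against 6.14 and 5.17 CPM. Its difference was -4.34 (SE 0.29, edgeR adjusted p = 3.1e-12), the 2 WstfΔ libraries standing just above their WT. Sox1 and Neurod1, neural factors, were lower for the difference by -2.21 (SE 0.21) and -2.32 (SE 0.15), but both were called between the WT groups, higher in batch E by 1.93 and 1.36.

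Genes that changed alike were called in both lines in the same direction. There were 190 (1.21% of the genes tested), 177 lower (1.13%) and 13 higher (0.0829%), which make up 27.2% of the genes called in Acf1Δ and 11.6% of those called in WstfΔ. The count was 46 in the model that lacks a batch term and 100 when 10 counts were required in each of the 8 libraries. By direction, 34% of the genes lower in Acf1Δ and 17.2% of those lower in WstfΔ were lower in both. The shared genes were not shared in size. The median change of the 177 was -1.72 in Acf1Δ and -2.42 in WstfΔ, 135 of them fell further in WstfΔ, and 32 of the 190 were also called for the difference. For 38 genes, 29 lower and 9 higher, the 95% interval of the difference lay within 2-fold, against 8936 (57%) of all genes tested, which include genes that changed in neither line.

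Among the genes higher in both lines, several had rises of like size. Rdm1, a gene for a RAD52-motif protein of DNA repair, was at 49.7 and 55.5 CPM in Acf1Δ against 19.4 ± 0.25 CPM (SD, n = 2), and at 40.3 and 41.6 CPM in WstfΔ against 19.4 and 18.7 CPM. All 4 knockout libraries lay above all 4 WT libraries, and the rises of 1.44 (SE 0.082) and 1.10 (SE 0.088) differed by 0.34 (95% interval 0.09 to 0.59). Upp1, uridine phosphorylase, was at 260 and 277 CPM in Acf1Δ against 130 and 127 CPM and at 336 and 324 CPM in WstfΔ against 166 and 157 CPM, a difference of 0.03 (95% interval -0.13 to 0.20). Cntfr, the receptor of ciliary neurotrophic factor, rose by 1.04 (SE 0.084) and 1.17 (SE 0.092). Ankrd34a and Fbp2, the muscle form of fructose bisphosphatase, differed by -0.22 (95% interval -0.63 to 0.18) and -0.32 (95% interval -0.72 to 0.08). Pdyn, the prodynorphin gene, rose in both and further in WstfΔ, by 1.36 (SE 0.24) and 2.63 (SE 0.29).

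Some genes that fell in both lines were nearly lost in both, and the difference between their falls had a wide interval. Stmn4, a stathmin gene, held 1 and 0 counts in Acf1Δ and 0 and 1 in WstfΔ, at least 6.78-fold and 11.6-fold lower than WT. Col3a1, a fibrillar collagen gene, was at least 10.7-fold and 5.32-fold lower. Krt7, a keratin gene, was at 0.224 and 0.635 CPM in Acf1Δ against 5.49 and 4.22 CPM and at 0.144 and 0.659 CPM in WstfΔ against 12.2 and 12.8 CPM, ending at overlapping levels, with a difference of 1.48 (95% interval 0.10 to 2.86). Gbp2, an interferon-inducible GTPase gene, fell by -3.49 (SE 0.34) in Acf1Δ and was at least 38.1-fold lower in WstfΔ. Dppa3, a naive and germline gene picked with its value known, stood at 0.784 and 1.38 CPM in Acf1Δ against 4.90 and 4.78 CPM and at 0.650 and 0.220 CPM in WstfΔ against 3.99 and 3.79 CPM, a difference of 0.99 (95% interval -0.07 to 2.06).

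**Figure D4:**
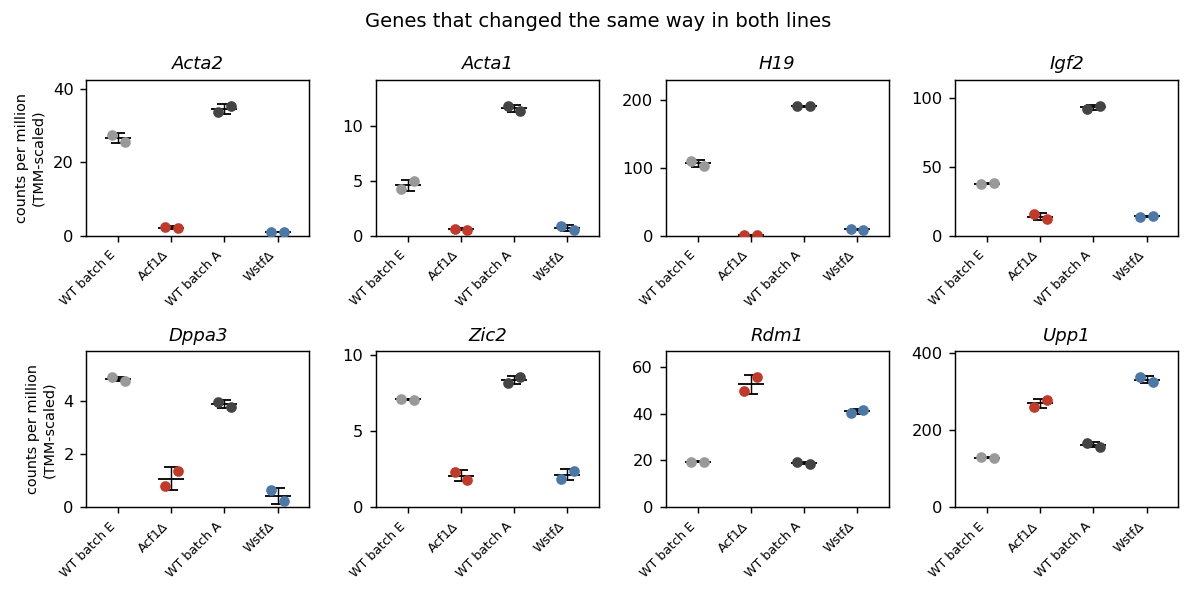
CPM (TMM-scaled, y axis from 0) of 8 genes that changed in the same direction in both lines, in the 2 libraries of each of 4 groups (points), with the mean and SD (bars, n = 2). Acta2, Acta1, H19, Igf2, Dppa3 and Zic2 are lower in both lines than in the WT of their batch, and Rdm1 and Upp1 higher.

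Of the 53 genes called in opposite directions (0.338% of the genes tested), 15 rose in Acf1Δ and fell in WstfΔ and 38 did the reverse. Naprt, which encodes an enzyme of NAD synthesis from nicotinic acid, was at 30.0 and 32.4 CPM in Acf1Δ against 12.9 and 14.3 CPM, and at 8.45 and 9.73 CPM in WstfΔ against 24.5 and 24.3 CPM. Its changes of 1.20 (SE 0.11) and -1.42 (SE 0.13) differed by 2.62 (SE 0.17, edgeR adjusted p = 1.81e-12). Dglucy, D-glutamate cyclase, was the converse, at 3.77 and 3.21 CPM in Acf1Δ against 11.2 and 9.0 CPM and at 15.2 and 17.8 CPM in WstfΔ against 3.43 and 3.27 CPM, a difference of -3.83 (SE 0.20). Fat2, an atypical cadherin gene, fell by -2.97 (SE 0.32) in Acf1Δ and rose by 1.71 (SE 0.25) in WstfΔ.

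These genes also differed between the WT groups, in the direction that brings the lines' starting points apart. Batch E WT stood below batch A WT for all 15 genes of the first order, by a median of -1.01, with 8 called, and above it for 37 of the 38 of the second, by a median of 1.09, with 21 called. Spink1, a trypsin inhibitor gene, was at 3.72 and 4.96 CPM in batch E WT and 12.8 and 13.2 CPM in batch A WT, and the lines were at 14 and 15.2 CPM in Acf1Δ and 2.89 and 4.68 CPM in WstfΔ, so that each line was near the WT of the other batch. Klhdc7a gave the same picture in reverse. A WT level enters a change with the opposite sign, so this order is partly built into the classes. The levels of the 2 lines themselves were called in the same order for 12 of the 15 and 36 of the 38 genes. Without a batch term 1 gene was called in opposite directions.

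**Figure D5:**
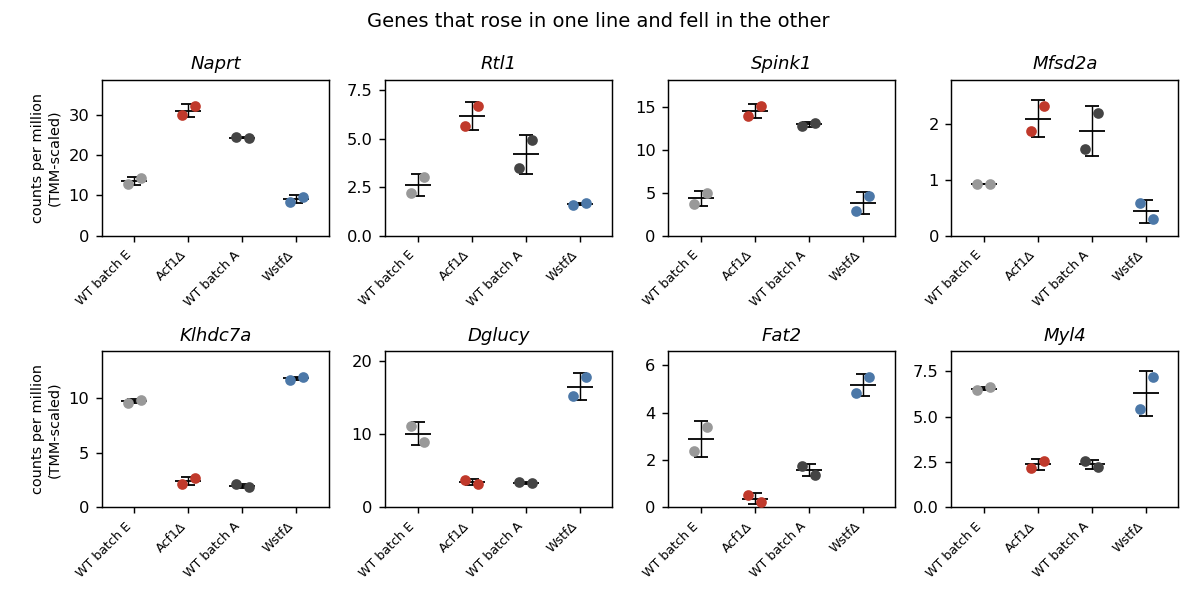
CPM (TMM-scaled, y axis from 0) of 8 genes called in opposite directions, 4 that rose in Acf1Δ (Naprt, Rtl1, Spink1, Mfsd2a) and 4 that rose in WstfΔ (Klhdc7a, Dglucy, Fat2, Myl4), in the 2 libraries of each of 4 groups (points), with the mean and SD (bars, n = 2). In each panel the WT groups stand in the opposite order to the 2 deletion lines.

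The libraries differed in gene length and in replicate spread. Among genes with a mean of at least 100 counts, the median change in Acf1Δ was 0.13 for genes under 2000 bases and -0.16 for genes over 8000 bases, and the median difference between the changes was 0.09 and -0.18. Within Acf1Δ, library 2 minus library 1 gave 0.18 and -0.23 for the same genes. The libraries of Acf1Δ differed by 19.6 on the chi-square scale per gene, those of batch E WT by 11.4, those of batch A WT by 4.58 and those of WstfΔ by 1.38, where a value near 1 is sampling noise. This value grows with the counts in a library, and the WstfΔ libraries were the shallowest. The Pearson correlation of log2 CPM between the libraries of a group was 0.992, 0.991, 0.993 and 0.989 in the same order, lowest in WstfΔ. The RNA component of RNase P, Rpph1, which lacks a poly(A) tail, was at 2.58 and 3.39 CPM in Acf1Δ against 0.184 and 0.148 CPM in WT and 0.650 and 0.732 CPM in WstfΔ. Short ribosomal protein genes gave 2 called of 87, Rpl30 and Rps13, both higher, and 83 subunits of oxidative phosphorylation 3 higher and 3 lower. What part gene length has in these calls was not tested.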

How the data were processed

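Poly(A) RNA of mESCs was sequenced. The authors aligned reads to mm10 with QuasR in spliced mode (HISAT2 per the labels), and counted them per knownGene gene; the deposited values are raw counts. How strand, overlapping genes and reads with several matches were counted is not given in the sources used here, so near-identical, overlapping and antisense genes are uncertain. Of 24594 gene IDs, 24570 matched RefSeq (GRCm38), which gave symbols, coordinates and promoters.

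Groups came from the sample titles. R 4.3.3 and edgeR 4.0.16 filtered genes with filterByExpr (15682 kept), scaled with TMM and fitted batch and genotype over all 24 libraries (quasi-likelihood, legacy form). P-values were Benjamini-Hochberg adjusted over all genes tested. SE is the absolute log2 value divided by the square root of F, and intervals are 95%. Of 200 genes simulated with a log2 difference of 2, 200 were called, with 0 false calls among 15079. Recovery at smaller log2 differences was not tested, nor was the error rate of the calls in the deposited libraries. The count floor of 3 covers counting error only.

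Genes were named by rule: Baz1a, Baz1b and Smarca5, the 12 largest differences per direction, 10 alike and 8 opposite per direction and 4 per list and direction, with a mean of at least 10 counts and, for differences, no overlap of the lines' changes. Clone, Gm, LOC, Mir and Snor names were left out. Other genes were added after values were seen, and 1 gene of the rule is not reported here. The comparison, members and lists were chosen with earlier results of these data known. Alternatives were DESeq2 1.42.0, edgeR's newer fit, no TMM, 3 filters, only these 8 libraries, no batch, a replicate block, glmTreat, no fold minimum and each library left out. Leaving out genes called between the WT groups, and the lists under 3 of the alternatives, were added after seeing the data.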

Additional observations from a re-analysis of the deposited data

Results flagged for a closer look

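Every result here was set apart because the 2 lines' effects under the same contrast, deletion against WT, differed by the test of the difference itself (edgeR's quasi-likelihood test). This holds for 1928 of the 15682 genes tested, 53 of which were called with opposite signs in the 2 lines. Of the genes named among these 53, 8 were higher after loss of Acf1, with log2 differences of 3.55 for Mroh6, 3.53 for Spink1, 3.27 for Mfsd2a, 3.18 for Tmem267, 3.07 for Mmd2, 2.79 for Nanos3, 2.62 for Naprt and 2.60 for Rtl1. Another 7 were lower, with -4.68 for Fat2, -4.61 for Trpm1, -4.58 for Klhdc7a, -3.87 for Lrrc31, -3.83 for Dglucy, -3.53 for Pygl and -2.86 for Myl4. The WT groups were themselves called for Spink1, Mroh6, Mfsd2a, Mmd2, Nanos3, Klhdc7a, Lrrc31, Dglucy and Myl4.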

How the results depend on the processing

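Without a batch term 290 genes were called for the difference (114 higher, 176 lower; 251 of them among the 1928), 153 in Acf1Δ, 500 in WstfΔ, 46 alike, 1 opposite and 17 alike with an interval within 2-fold, and of the named values 44 kept direction and call, 127 kept the direction but lost the call and 5 turned, Gfra2 in Acf1Δ to -0.20 and the differences of H2ax to 0.24, Dmrtb1 to 0.13, Cox5b to 0.68 and Bbc3 to 0.12 (H2ax, Dmrtb1, Cox5b and Bbc3 were called between the WT groups, higher in batch E). With glmTreat the counts were 561 (287 higher, 274 lower), 115, 615, 51 between the WT groups, 199 between the lines' levels, 35 alike and 2 opposite, and without a fold minimum 5477 (2788 higher, 2689 lower), 4985, 5444, 4654, 5474, 1098 and 1094. Requiring 10 counts in each of the 8 libraries gave 446 in Acf1Δ, 458 between the WT groups and 100 alike. Leaving out 1 library gave 1685 to 1960 genes for the difference (787 to 981 higher, 882 to 1055 lower), 536 to 698 in Acf1Δ, 1352 to 1653 in WstfΔ, 503 to 714 between the WT groups, 755 to 1090 between the lines' levels, 153 to 179 alike, 38 to 50 opposite and 29 to 41 within 2-fold. DESeq2 called 1842 (1818 of them shared), edgeR's newer fit 1920, library size only 1934 and the 8 libraries alone 1790. Same-numbered libraries did not deviate together (correlations 0.0429 in batch A and -0.0504 in batch E), and the replicate block called 1828, 1803 of them shared. Leaving out genes called between the WT groups left 1527. The cause of these shifts was not tested. The 2 WstfΔ libraries, at 13.6 and 13.4 M counts, limit genes under about 0.22 CPM.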
